A study of Mus musculus with 3 samples.

Results

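Neutrophils of the mouse aorta were taken from 3 droplet libraries of sorted CD45+ cells, the leukocytes of the vessel wall. A barcode was counted as a neutrophil when it held at least 10 unique molecular identifiers (UMIs, 1 per captured transcript) of S100a8 and at least 10 of S100a9, at least 2 of Csf3r, Cxcr2 and Retnlg together, and none of Csf1r, C1qa, Cd79a or Cd3e. It also had to show 200 or more detected genes and at most 10% of its UMIs in mitochondrial genes. Neutrophils were thus selected on measured values of these 9 genes, which are given as a description only. By this rule 340 of the 20903 barcodes within the limits were neutrophils. There were 80 among 6038 in the control library, 156 among 8155 in the HHcy-labelled library and 104 among 6710 in the library of the group labelled WD.

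All 3 libraries came from mice labelled ApoE-/- on C57BL/6J, animals that lack the lipoprotein ligand apolipoprotein E and develop atherosclerosis. The control group (Ctrl) is labelled as such, with no treatment named. In the group labelled HHcy, a model of high blood homocysteine, the drinking water held 1.8 g/L homocysteine over 4 weeks. In the group labelled WD a western diet was given over 4 weeks. Aortas were perfused, taken with their adventitia and digested with enzymes before sorting. The labels do not give the number, sex or age of the mice in a library. Each group had 1 library, so the groups were not tested against each other. Every interval below is a 95% interval that covers counting error only, and a difference between libraries cannot be told apart from a difference between mice, digests or runs.

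Neutrophils are short-lived granulocytes made in bone marrow. Their granules are filled in order during maturation: azurophil proteases come first, then the specific granule proteins Ngp (neutrophilic granule protein), Camp (cathelicidin) and Ltf (lactoferrin), then gelatinases. These transcripts shut down as the cell matures and leaves the marrow, while receptors such as Cxcr2, which binds CXC chemokines, and Il1r2, a decoy receptor for interleukin 1, rise. In diseased arteries neutrophils are known as a source of interleukin 1, chemokines, proteases and extracellular traps.

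The HHcy-labelled library went against its strain label in 1 respect. Apoe stood at 374 CPM (UMIs per 1000000 UMIs) over all its called barcodes, against 16.3 in the control and 19.3 in the western diet library, and at 1538 CPM in its macrophages against 27.7 and 28.2. In neutrophils Apoe was scarce, with 3 UMIs in the control, 41 in the HHcy-labelled library and 7 in the western diet library. Reads from the 3' end do not show whether the transcript was intact. A difference in Apoe genotype was not tested. It cannot be told apart from the other differences between the HHcy-labelled library and the control given below. Pairs of libraries shared between 20 and 24 called barcode sequences, and no neutrophil barcode was a neutrophil in another library. Neutrophils were shallow: the median was 4133, 5012.5 and 3995.5 UMIs in the control, HHcy-labelled and western diet libraries. It was 8362.5, 8217 and 10069.5 over the barcodes within the limits that were not neutrophils. S100a8 and S100a9, the 2 chains of calprotectin, took 23.2%, 24.2% and 19.6% of the UMIs of neutrophils.

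The neutrophil label held against B cells for genes that the rule did not use. All 14 further markers, among them Mmp9, Mmp8, Hdc, Trem1 and Ly6g, were detected in each library, and together they reached 17705, 19963 and 22869 CPM in the control, HHcy-labelled and western diet neutrophils. The same list gave 102, 170 and 84.7 CPM in B cells, a cell class that should lack them, with more UMIs per cell. This contrast does not set neutrophils apart from monocytes or macrophages, for which the list is not given here. B cells were barcodes with at least 3 UMIs of Cd79a, a UMI of Ms4a1, none of Csf1r, C1qa or Cd3e, and under 10 of S100a8. This S100a8 limit, set for the monocytes and macrophages named in the text as well, can leave out barcodes with much neutrophil RNA. Values in B cells may thus understate free neutrophil RNA. None of the 8 eosinophil, 10 mast cell or basophil, or 12 T and NK cell markers reached 10% of the neutrophils of any library. B cell markers did move with the libraries: 40.0%, 86.5% and 44.2% of neutrophils held at least 2 of 11, of which Igkc, an immunoglobulin light chain, had most UMIs in the HHcy-labelled library, although the list summed to only 361, 823 and 391 CPM against 16973, 23884 and 19607 in B cells. Cd79a was at 0 by the rule in all 3 libraries. The monocyte and macrophage list, with Csf1r and C1qa at 0 by the rule, summed to 828, 1220 and 740 CPM, and 45.0%, 60.3% and 57.7% of neutrophils held at least 2 of its 15 genes. The T and NK list summed to 14.4, 139 and 18.9 CPM, with Cd3e, Cd3g and Trac at 0 in every library. The dendritic cell list summed to 1285, 1052 and 1109 CPM. The stromal or endothelial list summed to 81.8, 76.1 and 94.7 CPM, against 7.07, 32.2 and 41.6 in B cells. Of its 11 markers 1 reached 10% of the neutrophils in each library. Ly6c2, a gene of the monocyte and macrophage list that marrow neutrophil precursors also express, stood at 128, 880 and 285 CPM in the granule-poor cells compared below. Its log2 ratio to the control was 2.78 (2.12 to 3.52) in the HHcy-labelled library and 1.15 in the western diet library, and it was called higher in both. The part of these markers in the comparisons below was not tested.

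A few barcodes that met the neutrophil rule carried the antigen-presentation genes of dendritic cells, and whether they were neutrophils was not tested. In 3, 5 and 2 neutrophils of the control, HHcy-labelled and western diet libraries at least 0.5% of UMIs came from H2-Aa, H2-Ab1, H2-Eb1 and Cd74, the class II genes and their chaperone. The 3 control cells alone held 9.09% of the UMIs of all control neutrophils, and Cst3, a dendritic cell gene, reached 408 UMIs in 1 of them. Their median was 12941 UMIs, against 4133 over all control neutrophils. These 10 are called class II barcodes below. Shares, results over all neutrophils and the comparison of stages keep them. Comparisons to the control within granule-poor neutrophils leave them out unless said otherwise. Zero-count conditions also cost many candidates. In the control 36 barcodes failed on Csf1r alone and 24 on C1qa alone, against 91 and 70 in the HHcy-labelled library and 40 and 65 in the western diet library. At the S100 threshold, 3, 8 and 2 neutrophils had 10 to 19 UMIs of the lower of both genes, and 2, 8 and 2 barcodes just outside it had 5 to 9. The 3 in the control had a median of 12941 UMIs, as the 3 control class II barcodes did. S100a8 and S100a9 took as little as 0.19% of UMIs in a control neutrophil, against a median of 19.7%.

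Neutrophils were 1.32% (1.05 to 1.65) of control barcodes, 1.91% (1.63 to 2.23) in the HHcy-labelled library and 1.55% (1.27 to 1.87) in the western diet library. The log2 ratio to the control was 0.53 (0.14 to 0.92) for the HHcy-labelled library and 0.23 (-0.19 to 0.64) for the western diet library. The HHcy-labelled ratio depended on what was counted. It was 1.27 among barcodes with no Cd79a UMI, 0.90 when up to 1 UMI of each barred gene was allowed, 0.28 without neutrophils that held Apoe, and -0.16 without neutrophils that held at least 2 UMIs of at least 2 markers of 1 other cell type. The last 2 conditions removed neutrophils only, and the barcodes they were counted among stayed the same. Apoe was held by 3 control, 30 HHcy-labelled and 6 western diet neutrophils, so that condition removed mostly HHcy-labelled cells. The western diet ratio was -0.12 among barcodes with no Cd79a UMI. In sorted cells a larger share of neutrophils cannot be told apart from a smaller share of the rest.

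Within the neutrophils the granule genes divided the cells sharply. The sum of Ngp, Camp and Ltf was 0 in 34 of 80 control neutrophils and 50 or more in 35, and between 5 and 49 in 3. In the HHcy-labelled library 65 of 156 were at 0, 40 were at 50 or more and 20 lay between 5 and 49. In the western diet library 63 of 104 were at 0, 23 were at 50 or more and 3 lay between. Neutrophils with 10 or more UMIs are called granule-rich here and the rest granule-poor. This is a line through a range and not a cell type, and with 1 and 1 neutrophils at 5 to 9 and at 10 to 19 UMIs in the control, 5 and 6 in the HHcy-labelled library and 1 and 1 in the western diet library, few lay near it.

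**Figure D1:**
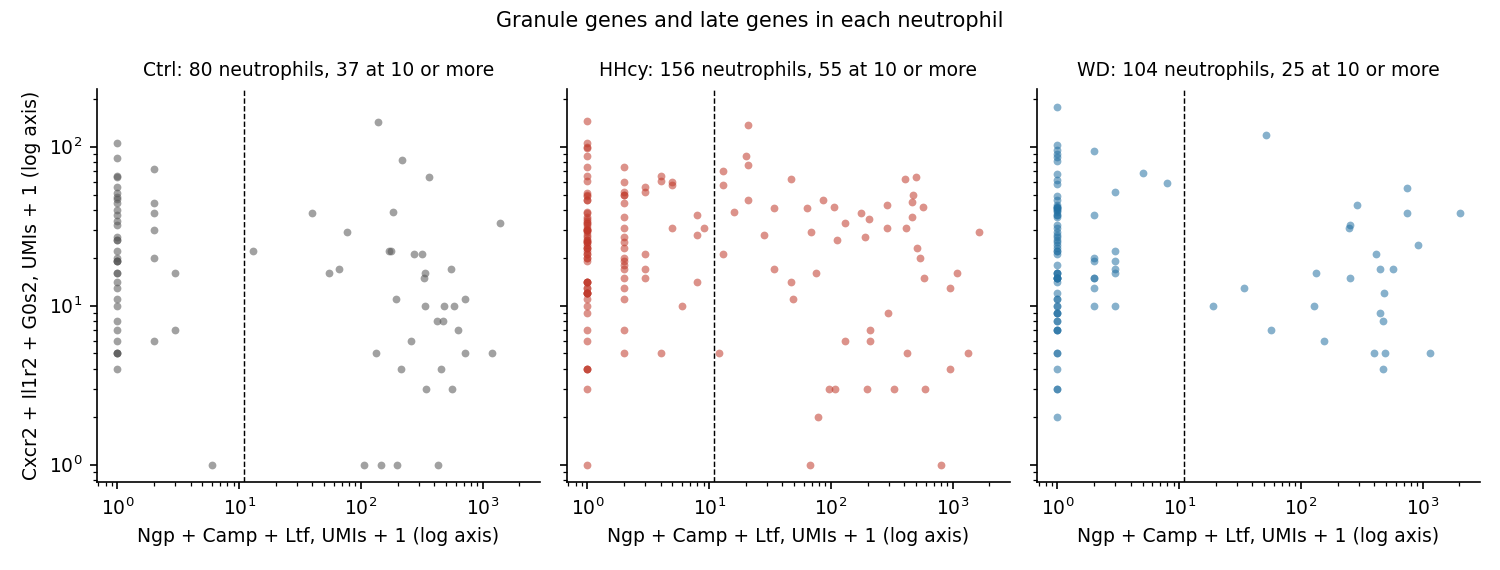
Each point is 1 neutrophil, with the summed UMIs of Ngp, Camp and Ltf plus 1 on the x axis and of Cxcr2, Il1r2 and G0s2 plus 1 on the y axis, both on log axes, in 1 panel per library; the dashed line marks 10 UMIs. The points form a column at 0 granule UMIs and a cloud above 50, with 37, 55 and 25 neutrophils at 10 or more in the control, HHcy-labelled and western diet libraries.

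Granule-rich cells were 46.2% (35.0 to 57.8) of control neutrophils, 35.3% (27.8 to 43.3) in the HHcy-labelled library and 24.0% (16.2 to 33.4) in the western diet library. The log2 ratio of this share to the control was -0.39 (-0.85 to 0.067) for the HHcy-labelled library and -0.94 (-1.54 to -0.34) for the western diet library. After each cell was thinned to 1000 UMIs, the shares with at least 5 granule UMIs were 46.2%, 29.6% and 23.5%. Among B cells, which should lack these genes, 0 of the control, 1 of the HHcy-labelled library and 0 of the western diet library held 10 or more granule UMIs, although B cells had more UMIs per cell. These B cells were chosen with under 10 UMIs of S100a8, which can leave out barcodes with much neutrophil RNA. Counted among all barcodes within the limits, granule-rich neutrophils were 0.613%, 0.674% and 0.373%, and granule-poor neutrophils were 0.712%, 1.24% and 1.18%. For granule-poor neutrophils the ratios to the control on the log2 scale were 0.80 (0.29 to 1.31) and 0.73 (0.19 to 1.26). The interval of the granule-rich share included a ratio of 1 in both, at 0.14 (-0.46 to 0.74) and -0.72 (-1.45 to 0.013).

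**Figure D2:**
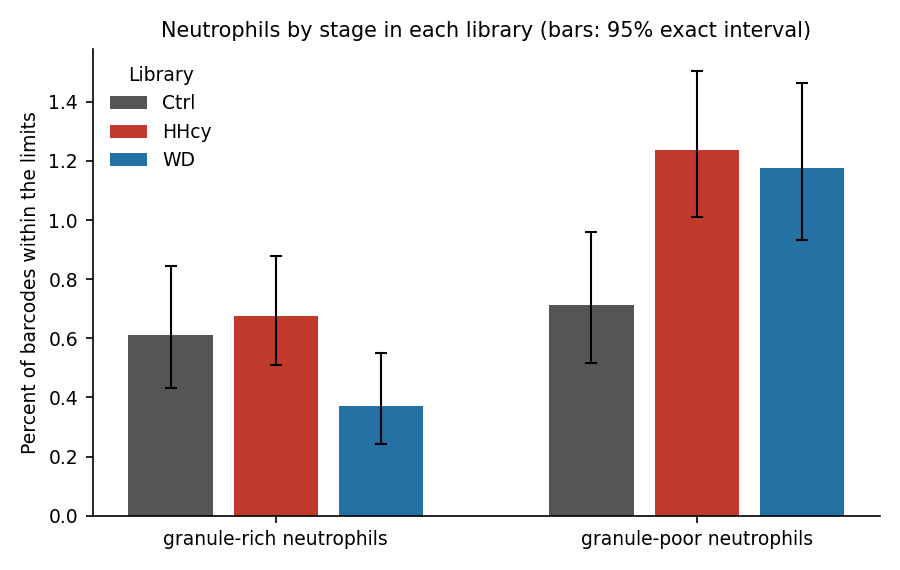
Bars give granule-rich and granule-poor neutrophils as a percent of the barcodes within the limits in each library, and whiskers the 95% exact binomial interval. Granule-poor neutrophils stand at 1.24% and 1.18% in the HHcy-labelled and western diet libraries against 0.712% in the control, and granule-rich ones at 0.674% and 0.373% against 0.613%.

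Ngp, Camp and Ltf lie on mouse chromosome 9, and the factor C/EBP epsilon is known to drive specific granule genes in maturing neutrophils. Their promoters, and that of Lcn2, the specific granule gene with most UMIs beside them, are printed because the division into stages rests on these genes. They run from 250 bases before to 50 bases after the start of transcription, from RefSeq on GRCm38.p6, and capitals mark matches on either strand to the C/EBP motif TTGCNNAA, where N is any base. Ngp is at chr9:110419558-110419857 (+ strand), Camp at chr9:109849407-109849706 (- strand), Ltf at chr9:111019042-111019341 (+ strand) and Lcn2 at chr2:32387690-32387989 (- strand).
Ngp: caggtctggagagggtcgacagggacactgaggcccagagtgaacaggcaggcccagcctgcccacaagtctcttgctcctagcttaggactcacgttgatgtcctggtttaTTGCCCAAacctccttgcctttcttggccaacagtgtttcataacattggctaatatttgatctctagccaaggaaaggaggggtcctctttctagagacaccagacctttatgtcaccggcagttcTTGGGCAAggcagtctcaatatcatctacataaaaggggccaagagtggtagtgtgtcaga
Camp: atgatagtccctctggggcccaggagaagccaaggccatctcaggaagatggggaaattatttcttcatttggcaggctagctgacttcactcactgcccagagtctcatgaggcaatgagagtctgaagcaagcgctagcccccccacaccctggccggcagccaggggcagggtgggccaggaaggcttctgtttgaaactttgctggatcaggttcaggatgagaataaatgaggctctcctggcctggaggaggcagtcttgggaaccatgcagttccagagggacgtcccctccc
Ltf: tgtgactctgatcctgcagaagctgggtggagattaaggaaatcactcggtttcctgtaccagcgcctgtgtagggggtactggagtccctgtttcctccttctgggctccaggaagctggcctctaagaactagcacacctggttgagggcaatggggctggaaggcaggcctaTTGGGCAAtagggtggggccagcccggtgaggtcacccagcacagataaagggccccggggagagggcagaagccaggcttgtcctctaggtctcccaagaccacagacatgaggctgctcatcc
Lcn2: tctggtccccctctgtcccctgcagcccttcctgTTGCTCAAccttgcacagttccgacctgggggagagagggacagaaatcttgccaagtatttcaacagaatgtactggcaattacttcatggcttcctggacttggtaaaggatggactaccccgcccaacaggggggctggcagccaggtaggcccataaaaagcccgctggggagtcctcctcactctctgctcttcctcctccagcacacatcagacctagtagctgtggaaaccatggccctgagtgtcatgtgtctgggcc
The letters occurred at 2 places for Ngp, 1 for Ltf, 1 for Lcn2 and none for Camp. A match was held by 10.8% of all 32851 promoters, and 3 of the 9 specific granule genes did. A match describes the sequence and is no evidence of binding.

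The 3 granule genes themselves were abundant where present. Ngp stood at 13509 CPM over all control neutrophils, 8467 in the HHcy-labelled library and 9186 in the western diet library. Camp stood at 14182, 6614 and 11577 CPM, and Ltf at 4186, 2737 and 3132. For each of these genes the control was highest over all neutrophils. Within granule-rich cells the order was another, since there the 3 genes took 5.76%, 3.83% and 6.86% of UMIs in the control, HHcy-labelled and western diet libraries. Granule-rich neutrophils held over 99% of these UMIs in each library, with 99.9%, 99.5% and 99.7%. Late genes were present in both stages. Il1r2 was detected in 86.2%, 89.1% and 93.3% of neutrophils, and G0s2, an inhibitor of lipolysis, in 78.8%, 87.2% and 85.6%. Cxcr2, a gene of the rule, was detected in 61.2%, 82.7% and 73.1%. The summed late genes had a median of 10, 26 and 14 UMIs in granule-rich neutrophils of the control, HHcy-labelled and western diet libraries. In granule-poor ones the medians were 19, 24 and 20. Cxcr2 is part of this sum. In these raw counts the stages were least apart in the HHcy-labelled library. The granule-rich cells of that library also had the most UMIs, with a median of 7471 against 5380 in the control and 6220 in the western diet library. Its granule-poor cells had a median of 4256 UMIs, so the raw counts do not compare the stages at equal depth. Levels of Il1r2 as CPM by stage are given below. Of the azurophil granule, Mpo, myeloperoxidase, had 15 UMIs in the control, 0 in the HHcy-labelled library and 1 in the western diet library, and Elane, neutrophil elastase, had 19, 0 and 0.

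The granule-rich neutrophils held more specific granule and more cell cycle transcripts. Of 1477 genes with at least 30 UMIs in every library, 81 (5.48%) were at least 2-fold higher in granule-rich than in granule-poor neutrophils in each of the 3 libraries, and 210 (14.2%) were at least 2-fold lower. These counts describe a division made on the same cells and carry no test. Class II barcodes are kept in the stage levels here and below. They held 20.3%, 3.79% and 8.44% of granule-poor UMIs in the control, HHcy-labelled and western diet libraries. Among specific granule genes 5 of the 6 measured beside the splitting genes were higher. Chil3, a chitinase-like protein, had 596, 757 and 621 UMIs in granule-rich neutrophils of the control, HHcy-labelled and western diet libraries and 0, 17 and 0 in granule-poor ones. Itgb2l, an integrin chain, stood at 387, 206 and 382 CPM against 5.38, 12.0 and 3.22. Cd177, a surface partner of proteinase 3, stood at 1314, 1131 and 1248 CPM against 26.9, 132 and 80.6. Lcn2, which binds bacterial iron carriers, was not confined to them, at 9133, 11062 and 11566 CPM against 1076, 3352 and 1959. Cybb, the membrane subunit of the NADPH oxidase, was the 1 gene of 7 in its list that differed, at 1305, 927 and 1775 CPM against 102, 132 and 83.8.

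Gelatinase granule genes were closer between stages. Mmp8, neutrophil collagenase, stood at 1123, 1919 and 1115 CPM in granule-rich neutrophils and 339, 1048 and 654 in granule-poor ones. Mmp9, gelatinase B, stood at 1366, 1785 and 1315 CPM against 1065, 1090 and 1170. Lyz2, lysozyme, and Olfm4 were the 2 of 10 that were 2-fold higher in every library, and Arg2, an arginase, was the 1 that was 2-fold lower. Mki67, Top2a and Ube2c, 3 of 6 cell cycle genes measured, were higher as well, and Mki67 stood at 170, 139 and 267 CPM against 26.9, 12.0 and 29.0. At least 3 of 13 cycling genes were found in 5 granule-rich neutrophils of each library, and in 1, 0 and 1 granule-poor ones.

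Inflammatory genes were higher in the granule-poor neutrophils. Of 23 measured cytokine and NF-kB target genes 20 were at least 2-fold lower in granule-rich neutrophils in every library, and none was higher. Il1b, interleukin 1 beta, stood at 12646, 12885 and 14622 CPM in granule-poor neutrophils of the control, HHcy-labelled and western diet libraries against 792, 1847 and 1187 in granule-rich ones. Cxcl2, a neutrophil attractant that binds Cxcr2, stood at 33450, 26074 and 29975 CPM against 4277, 6462 and 5447. Nlrp3, the inflammasome sensor, stood at 1883, 827 and 1237 CPM against 131, 99.7 and 121. Ptgs2, the inducible cyclooxygenase, stood at 2126, 1465 and 2185 CPM against 187, 211 and 176. Csf1, the macrophage growth factor, had 80, 185 and 146 UMIs against 1, 11 and 3, and Cd274, the checkpoint ligand PD-L1, had 53, 108 and 87 against 0, 11 and 2. Each of these genes was higher in the granule-poor cells of every library.

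Interferon-stimulated genes followed the same division, with 7 of 11 measured at least 2-fold lower in granule-rich neutrophils. Late maturity genes did so for 5 of 9: Il1r2, Msrb1, Clec4d, Fgl2 and Ifitm1. Il1r2 stood at 1959, 1722 and 1431 CPM in granule-poor against 600, 433 and 436 in granule-rich neutrophils. Cxcr4, the marrow-retention receptor that also rises on aged neutrophils, stood at 657, 414 and 757 against 139, 74.2 and 242 CPM. Survival genes Mcl1, Bcl2a1b, Bcl2a1d and Birc3 were lower in granule-rich cells too, 4 of 7 measured. For hypoxia and glycolysis 0 of 11, and for ribosomal proteins 0 of 78, were 2-fold apart in every library.

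**Figure D3:**
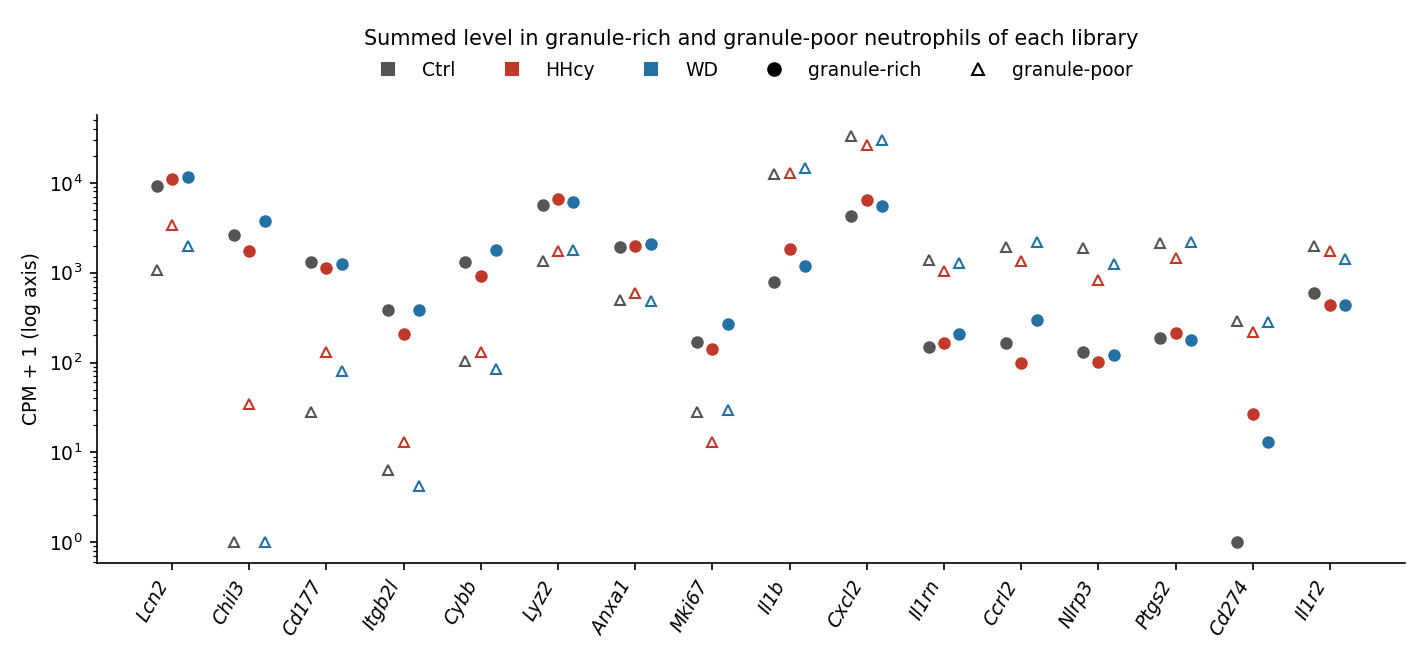
CPM plus 1 on a log axis for 16 genes, summed over granule-rich (filled circles) and granule-poor (open triangles) neutrophils of each library (colour), with class II barcodes kept. The granule genes on the left are higher in filled circles and the inflammatory genes on the right in open triangles in all 3 libraries; Il1b stands at 792 to 1847 CPM in granule-rich and 12646 to 14622 CPM in granule-poor cells.

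Because the libraries held different mixtures of stages, each comparison to the control was made over all neutrophils and then within granule-poor neutrophils without class II barcodes. The second set held 40 control, 98 HHcy-labelled and 77 western diet neutrophils with 148066, 482820 and 284151 UMIs. A gene was tested at 30 or more UMIs over both libraries, and called at a fold of 1.5 or more with a counting interval that excluded a ratio of 1. The same control library served both comparisons, so they are not independent. Over all neutrophils 209 of 3545 genes (5.9%) were higher and 416 (11.7%) lower in the HHcy-labelled library, and 213 of 2825 (7.54%) were higher and 171 (6.05%) lower in the western diet library. In granule-poor neutrophils 172 of 2051 (8.39%) were higher and 201 (9.8%) lower in the HHcy-labelled library, and 71 of 1595 (4.45%) were higher and 71 (4.45%) lower in the western diet library. Scaling moved these splits. TMM factors raised every log2 ratio by 0.26 for granule-poor neutrophils of the HHcy-labelled library and by 0.14 for those of the western diet library, and gave 332 higher and 78 lower, and 118 higher and 35 lower. Over all neutrophils they gave 431 higher and 214 lower, and 229 higher and 141 lower. List medians below are on the unshifted scale.

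In granule-poor neutrophils of the HHcy-labelled library interferon-stimulated genes were higher. Of 20 tested 10 were called higher and none lower, with a median log2 ratio of 0.83 beside -0.06 over all genes, and 13 with TMM factors. The median was 0.83 too with Ifit2, which was at 0 in the control, set to its bound. Summed over the list the level was 5673 CPM (5296 to 6070) in the control, 10401 (10116 to 10693) in the HHcy-labelled library and 7908 (7584 to 8242) in the western diet library. The list had a median of 16 UMIs per cell in the control, 34 in the HHcy-labelled library and 23 in the western diet library. At 1000 UMIs per cell the mean was 5.45, 9.72 and 8.01 UMIs with an SD among cells of 5.20, 8.22 and 7.18, so the cells of the libraries overlapped widely.

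Ifitm3, which blocks virus entry, was the most abundant gene of the list, at 1229, 3689 and 2108 CPM in the control, HHcy-labelled and western diet libraries and a log2 ratio of 1.59 (1.36 to 1.81) for the HHcy-labelled library. Ifit2, a member of the IFIT family that binds foreign RNA, had 0 UMIs in 40 control cells, 62 in the HHcy-labelled library and 3 in the western diet library, at least 6.34-fold higher in the HHcy-labelled library against a floor of 3 control UMIs. Ifit1 of the same family stood at 169, 445 and 341 CPM, a log2 ratio of 1.40 (0.80 to 2.06). Gbp2, a GTPase, stood at 115, 342 and 109 CPM, with a log2 ratio of 1.57 (0.85 to 2.39). Irf7, the factor that amplifies interferon, stood at 135, 267 and 208 CPM, with a log2 ratio of 0.98 (0.30 to 1.74). Other classical members did not pass: Isg15 stood at 581, 611 and 567 CPM, Rsad2 at 520, 619 and 774, and Oasl2 at 412, 391 and 563. Bst2 was called, but 1 cell held 45.8% of its HHcy-labelled UMIs.

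In the western diet library fewer interferon genes passed, and the difference from the HHcy-labelled library was not tested. Of 17 tested in granule-poor neutrophils 3 were higher, Ifitm3 at a log2 ratio of 0.78 (0.54 to 1.03), Slfn4 at 0.70 (0.39 to 1.02) and Ifit1 at 1.02 (0.37 to 1.71), and none was lower. With TMM factors 9 were higher. The median was 0.45 beside 0.00 over all genes. Neutrophils with 2 or more markers of any other cell type were also left out, but only 11, 6 and 12 granule-poor cells then remained, the list median for the HHcy-labelled library was -0.42, and the marker lists hold Bst2, itself interferon-stimulated. Where such markers had to reach 2 UMIs and Bst2 was not counted, 38, 63 and 71 cells remained and the median was 0.68. Without neutrophils that held Apoe it was 0.90. That setting, here and below, keeps cells of the same libraries, so it cannot show the part of genotype or free RNA. In classical monocytes of the same libraries Ifit2 stood at 40.0, 45.5 and 54.6 CPM, above the control in both other libraries. Isg15, which was not called in the neutrophils either, stood at 262, 233 and 299 CPM there. These 2 genes do not stand for the list. In the control the list summed to 7589 CPM in classical monocytes and 3659 in macrophages, against 5673 in granule-poor neutrophils without class II barcodes. Whether the list differed between the libraries in monocytes was not tested.

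**Figure D4:**
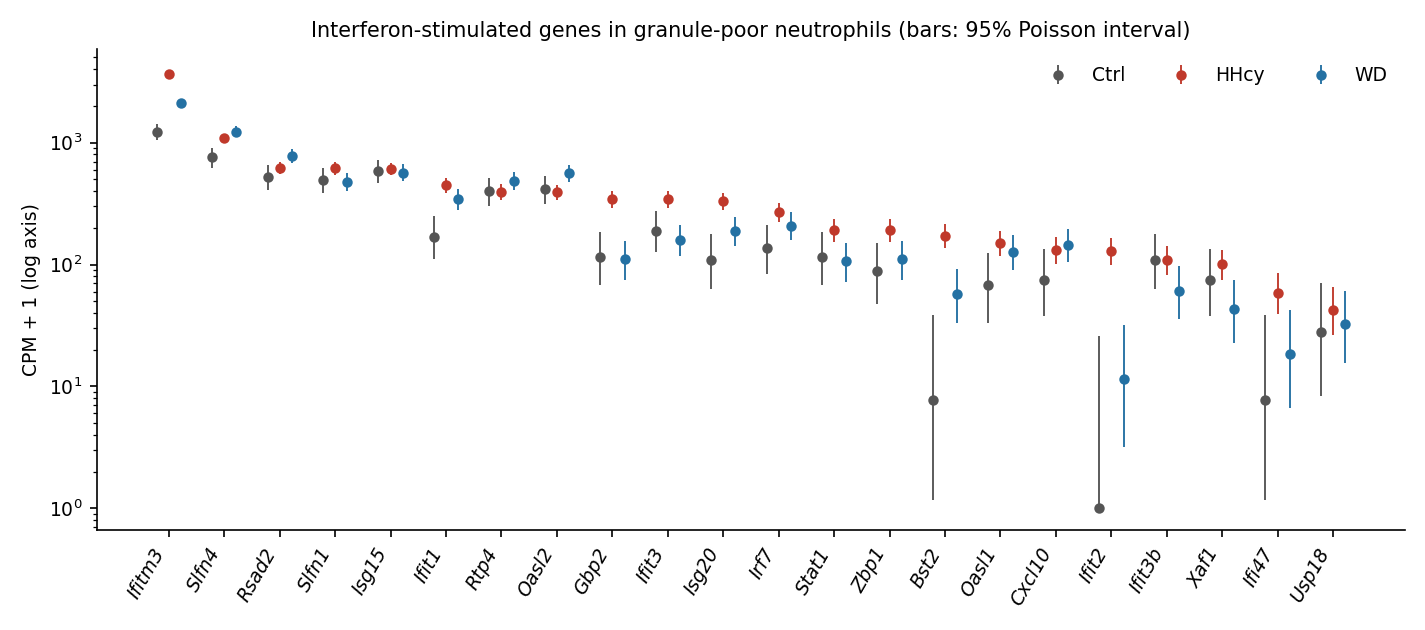
CPM plus 1 on a log axis for each interferon-stimulated gene, summed over granule-poor neutrophils without class II barcodes in the control (grey), HHcy-labelled (red) and WD (blue) libraries, with 95% Poisson intervals. Ifitm3 is at 1229, 3689 and 2108 CPM and Ifit2 has 0 UMIs in the control, while Isg15 lies at 567 to 611 CPM in all 3 libraries.

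Interferon-stimulated genes are known to be switched on through a promoter element bound by STAT and IRF factors, and promoters are printed for 2 genes that were called in the HHcy-labelled library, Ifit1 and Ifit3, and for 1 that was not, Isg15. Capitals mark the core GAAANNGAA on either strand, where N is any base and overlapping matches run together. Ifit1 is at chr19:34640639-34640938 (+ strand), Ifit3 at chr19:34583279-34583578 (+ strand) and Isg15 at chr4:156200769-156201068 (- strand) of GRCm38.p6, from RefSeq.
Ifit1: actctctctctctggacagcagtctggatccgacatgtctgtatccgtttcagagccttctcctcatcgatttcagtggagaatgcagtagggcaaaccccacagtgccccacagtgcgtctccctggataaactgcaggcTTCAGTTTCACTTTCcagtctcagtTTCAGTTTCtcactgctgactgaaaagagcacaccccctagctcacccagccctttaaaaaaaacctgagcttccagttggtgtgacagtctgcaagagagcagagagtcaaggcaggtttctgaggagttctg
Ifit3: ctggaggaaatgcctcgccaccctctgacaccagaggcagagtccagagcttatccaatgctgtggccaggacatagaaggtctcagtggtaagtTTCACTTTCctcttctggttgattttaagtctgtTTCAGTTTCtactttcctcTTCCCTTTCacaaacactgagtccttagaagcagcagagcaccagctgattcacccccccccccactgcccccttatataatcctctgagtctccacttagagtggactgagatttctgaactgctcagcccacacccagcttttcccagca
Isg15: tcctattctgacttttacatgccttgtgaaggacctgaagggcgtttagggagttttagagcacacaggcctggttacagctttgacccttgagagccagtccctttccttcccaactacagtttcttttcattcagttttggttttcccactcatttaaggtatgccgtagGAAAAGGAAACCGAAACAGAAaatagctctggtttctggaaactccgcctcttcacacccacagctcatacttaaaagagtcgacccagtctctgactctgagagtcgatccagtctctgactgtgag
Each of the 3 promoters held 3 matches, so the count of these letters did not separate the called genes from Isg15. Across all promoters 8.56% held a match, against 9 of 18 listed genes found in the table. Ifit2, with 2 promoters in the table, had none.

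Hypoxia and glycolysis genes were higher in the same cells. In granule-poor neutrophils of the HHcy-labelled library 7 of 15 tested were higher and 1 lower, or 10 and 1 with TMM factors, with a median log2 ratio of 0.83, or 0.91 without neutrophils that held Apoe. Gapdh, a glycolytic enzyme, stood at 615, 1311 and 1042 CPM in the control, HHcy-labelled and western diet libraries, with ratios on the log2 scale of 1.09 (0.77 to 1.43) and 0.76 (0.42 to 1.12). Pgk1, the next enzyme of the pathway, stood at 60.8, 188 and 172 CPM, with a log2 ratio of 1.63 (0.64 to 2.81) for the HHcy-labelled library, and was called in the western diet library as well. Hilpda, a hypoxia-induced lipid droplet protein, stood at 108, 290 and 91.5 CPM with a log2 ratio of 1.42 (0.67 to 2.27) in the HHcy-labelled library and -0.24 (-1.19 to 0.76) in the western diet library. The difference between both libraries was not tested. Vegfa, the endothelial growth factor, was the lower gene, at 176, 49.7 and 190 CPM and a log2 ratio of -1.82 (-2.68 to -0.96). In the western diet library 3 of 12 were higher and none lower, with a median of 0.34.

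Inflammatory genes went the other way in the HHcy-labelled library. Of 24 tested in granule-poor neutrophils 14 were lower and none higher, with a median log2 ratio of -0.68, or -0.65 without neutrophils that held Apoe. With TMM factors 6 were lower and 1 higher, with a median of -0.41. The higher gene was Cxcl1, but 1 cell held 71.2% of its HHcy-labelled UMIs. With the strictest marker limit, which left 11 and 6 cells, the list median turned to 0.020. Nlrp3 stood at 1857, 835 and 1267 CPM in the control, HHcy-labelled and western diet libraries, a log2 ratio of -1.15 (-1.38 to -0.93) for the HHcy-labelled library. Tnf, tumour necrosis factor, stood at 824, 383 and 732 CPM with -1.10 (-1.44 to -0.76), and Osm, oncostatin M, at 1222, 551 and 750 CPM with -1.15 (-1.43 to -0.87). Ccl3, a chemokine for monocytes and neutrophils, stood at 4707, 2668 and 2921 CPM with -0.82 (-0.95 to -0.68), but 1 control cell held 29.8% of its control UMIs. Without the cell with most Ccl3 in each library the ratio was -0.45 (-0.60 to -0.30) and no longer called. The 2 most abundant genes were not called: Cxcl2 stood at 37970, 26809 and 32001 CPM, a log2 ratio of -0.50, and Il1b at 14082, 13007 and 15256 CPM, a ratio of -0.11. Of 20 immediate early and heat shock genes 8 were lower and 1 higher, with a median of -0.48, but with TMM factors 4 were lower and 3 higher. The 8 held Fosb, at 574, 238 and 415 CPM, 5 other immediate early genes, and the chaperone genes Hspa5 and Dnaja1, while Hsp90aa1, a chaperone gene too, was the higher.

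Over all neutrophils the inflammatory list gave other values, and the share of granule-poor cells, in which the list was highest, differed between the libraries. In the western diet library 8 of 24 were higher over all neutrophils, with a median of 0.43, but in granule-poor cells 2 were higher and 2 lower, with a median of -0.18. The higher were Cxcl1 at a log2 ratio of 2.61 and Cxcl3 at 0.63, and the lower Ccl3 at -0.69 and Osm at -0.71. Cxcl1 was found in 12.5% of control and 11.7% of western diet cells, and 1 western diet cell held 35.0% of its UMIs there, as 1 held 23.8% for Cxcl3. Without the cell with most UMIs of the gene in each library the ratios were 2.70 for Cxcl1, 0.92 for Cxcl3 and -0.38 for Ccl3, which was then not called. With TMM factors neither Ccl3 nor Osm was called. In the HHcy-labelled library 4 of 24 were lower and 1 higher over all neutrophils, with a median of -0.16 that turned to 0.06 with TMM factors. Of the specific granule list 6 of 9 were lower over all HHcy-labelled neutrophils, with a median of -0.62. In granule-poor cells, which were set apart by low Ngp, Camp and Ltf, the list is given as levels only: Lcn2 stood at 1290, 3480 and 2097 CPM, and Cd177 had 3, 66 and 25 UMIs.

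**Figure D5:**
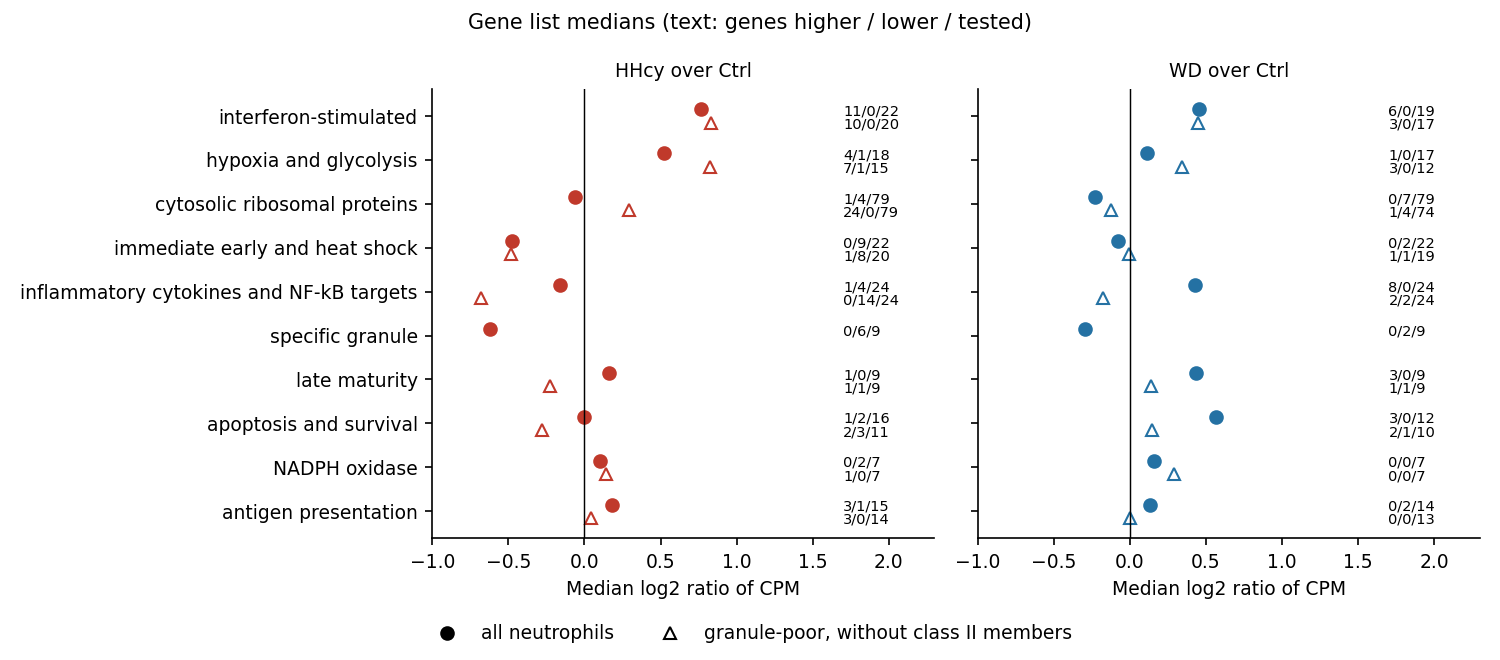
Median log2 ratio to the control for 10 gene lists in the HHcy-labelled (left) and WD (right) libraries, over all neutrophils (filled circles) and granule-poor neutrophils without class II barcodes (open triangles), with the genes called higher, called lower and tested; the specific granule list is shown over all neutrophils only. The interferon list lies at 0.77 and 0.83 in the left panel, and the inflammatory list moves from 0.43 to -0.18 in the right panel.

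The 10 genes named by the highest ratios in granule-poor neutrophils of the HHcy-labelled library were Ifit2, Lipg, St3gal1, Upp1, Tpi1, Ly6c2, Cd177, Pnp, Steap4 and Ckap4. Lipg, endothelial lipase, had 1 UMI in the control, 61 in the HHcy-labelled library and 2 in the western diet library, a log2 ratio of 4.23 (1.69 to 9.55). Upp1, uridine phosphorylase, stood at 40.5, 304 and 204 CPM, with ratios on the log2 scale of 2.91 (1.75 to 4.38) and 2.33 (1.12 to 3.84), and led the western diet comparison as well. Steap4, a metalloreductase, stood at 54.0, 271 and 102 CPM, with 2.33 (1.31 to 3.57). Ifitm1, a late maturity gene here, stood at 2499, 8316 and 4089 CPM, with 1.73 (1.58 to 1.89) and 0.71 (0.54 to 0.88). Lipg and Steap4 were near 0 in monocytes, macrophages and B cells of every library, at most 3.20 CPM. Over all neutrophils Prok2, a secreted chemoattractant, and Wfdc17 were also among the 10 highest. Wfdc17 stood at 26.1, 2753 and 261 CPM in granule-rich neutrophils, and at 2695, 8202 and 3970 in granule-poor ones without class II barcodes. Ifitm1 in granule-rich neutrophils stood at 47.9, 2209 and 18.2 CPM. For these genes the granule-rich cells of the HHcy-labelled library stood above those of both other libraries, and that set also held 2 class II barcodes and the most cells between 10 and 49 granule UMIs.

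Most of the 10 genes with the lowest ratios were of low count. In granule-poor neutrophils Tbk1, a kinase upstream of interferon genes, had 21 control UMIs, 15 in the HHcy-labelled library and 14 in the western diet library, with ratios on the log2 scale of -2.19 (-3.25 to -1.17) and -1.53 (-2.61 to -0.48). Sik1, a salt-inducible kinase, had 22, 23 and 12 UMIs, with -1.64 (-2.55 to -0.73) and -1.81 (-2.96 to -0.74). Morrbid, a long noncoding RNA that keeps short-lived myeloid cells alive, stood at 182, 49.7 and 123 CPM, with -1.88 (-2.73 to -1.03) in the HHcy-labelled library. Tuba1c, an alpha tubulin, stood at 507, 178 and 197 CPM, with -1.51 (-1.97 to -1.04) and -1.36 (-1.89 to -0.84). Cstb, the protease inhibitor cystatin B, stood at 783, 410 and 355 CPM and was among the 10 lowest in the western diet library, at -1.14 (-1.54 to -0.74). Both comparisons rest on the same control cells for these genes.

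Receptors and survival genes held calls in both directions. Over all genes tested in granule-poor neutrophils 8.39% were higher and 9.8% lower in the HHcy-labelled library. In the western diet library 4.45% were called each way. A list of 8 or 9 with 1 gene called lies near these HHcy-labelled shares. With TMM factors the share higher rose and the share lower fell, as given above. Of 8 chemoattractant receptors tested in the HHcy-labelled library 1 was higher and 3 lower, or 1 and 1 with TMM factors. Cxcr4 stood at 790, 402 and 718 CPM, with -0.98 (-1.31 to -0.63), while Ccr1 stood at 1371, 1226 and 1376 CPM and C5ar1, the C5a receptor, at 648, 644 and 542. Ltb4r1, the leukotriene B4 receptor, had 4, 53 and 18 UMIs. In the western diet library 0 of 7 were called. Of 11 apoptosis and survival genes 2 were higher and 3 lower in the HHcy-labelled library, and of 10 in the western diet library 2 were higher and 1 lower. Casp4, an inflammatory caspase, was higher in both at a log2 ratio of 0.72, from 203 to 333 and 334 CPM. Bcl2l1, a survival gene, had 6, 53 and 27 UMIs, and Mcl1, on which neutrophil survival depends, stood at 3782, 2827 and 3505 CPM without a call. Late maturity genes gave 1 higher and 1 lower of 9 in each library: Ifitm1 was the higher, and the lower was Clec4d in the HHcy-labelled library and Il1r2 in the western diet library. Ribosomal protein genes gave 24 higher and none lower of 79 in the HHcy-labelled library, with a median of 0.29, or 35 higher with TMM factors, but the median was -0.45 with the class II barcodes kept. Of 17 genes of the homocysteine and methionine cycle 2 had enough UMIs over all neutrophils, Mat2a and Mat2b, which make S-adenosylmethionine. Mat2a stood at 120, 33.2 and 79.9 CPM in the control, HHcy-labelled and western diet libraries and Mat2b at 154, 70.7 and 65.2. Both were lower in the HHcy-labelled library, Mat2a at -1.86 (-2.55 to -1.18) and Mat2b at -1.12 (-1.64 to -0.60) on the log2 scale, and Mat2b was lower in the western diet library at -1.24 (-1.91 to -0.60). In granule-poor neutrophils Mat2b alone had enough UMIs, with -0.61 (-1.38 to 0.22) in the HHcy-labelled library and a call in the western diet library at -1.01 (-1.97 to -0.056) that was lost with TMM factors and without the cells with most of its UMIs.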

How the data were processed

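The deposited files are gene by barcode matrices of raw UMI counts, 1 per library, made by the authors from Chromium 3' libraries. The file headers name Cell Ranger 4.0.0, while the submitters' processing notes name Cell Ranger 2.2.0 and mm10. The annotation is not given in the sources used here. Barcodes were chosen by the rule given in the text. The members, gene lists and lists of cell markers were chosen with earlier results of these data known. No doublet caller was run; the genes required at 0 and the marker alternatives stand in its place. UMIs were summed over neutrophils per library and written as CPM. Log2 ratios carry exact conditional binomial intervals, shares Clopper-Pearson intervals and levels Poisson intervals, all at 95%. Free RNA inflates low counts and is not corrected. Medians over a list are to be read beside the median log2 ratio over all genes tested. That was -0.06 in granule-poor and -0.10 in all neutrophils of the HHcy-labelled library, and 0.00 and 0.03 in the western diet library. Genes named were, per comparison, the 10 highest and 10 lowest called, leaving out genes of the rule, mt- genes, genes with over 20% of UMIs in 1 cell, under 10% detection or a CPM below that of other barcodes, and the 4 genes of each list with most UMIs. Further genes in the text, and all splits by class II barcodes, were chosen after their values were seen. The comparison was run on simulated Poisson counts with planted changes. These held no variation between cells or libraries beyond counting error, so that run cannot show how the comparison deals with such variation. Python 3.11.15, numpy, scipy and pandas were used, and edgeR 4.0.16 for TMM factors only.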

Additional observations from a re-analysis of the deposited data

How the results depend on the processing

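No paired analysis was possible because each group had 1 library, and for the same reason no library was left out. Counting error is the only error known, and depth limits genes under 30 UMIs. Ratios to a control at 0 have no value and were not recomputed. Values below are, unless said otherwise, HHcy-labelled over control and western diet over control.

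The share of neutrophils changed direction with markers of other cells and with the denominator. Without neutrophils that held at least 2 markers of 1 other cell type, the log2 ratios were -1.68 and -0.70, granule-rich cells were 25% and 7.69%, and the counts of genes higher and lower were 55 and 45, and 41 and 49, or 28 and 37, and 21 and 39 in granule-poor cells. This left 19, 8 and 13 neutrophils, while the barcodes they were counted among stayed the same, and the causes of the turned values were not tested. List medians then turned to -0.16 for interferon genes over all HHcy-labelled neutrophils, and in granule-poor cells to -0.42 for interferon, -0.63 for specific granule and 0.020 for inflammatory genes. Ratios turned in the HHcy-labelled library for Mmp8 (-0.035) and H2afz (0.0015), and in its granule-poor cells for Lcn2 (-0.64), Hp (-0.58) and Cxcr4 (0.25). They turned in the western diet library for G0s2 (-0.37), Cxcr4 (-0.99), Rsad2 (-0.95), Ccrl2 (-1.10) and Cd74 (0.36), and in its granule-poor cells for Mmp8 (-1.27), Slfn4 (-0.10) and Il1r2 (0.33). With such markers at 2 UMIs or more, the HHcy-labelled share ratio was -0.16, granule-rich cells were 26.7%, Cd74 was 0.12 in the western diet library, and 257 genes were lower, or 118 in granule-poor cells. Over barcodes with no Cd79a the share ratios were 1.27 and -0.12.

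With up to 1 UMI of each barred gene, 638 genes were lower in the HHcy-labelled library, and 128 in granule-poor western diet cells. TMM factors gave 431 higher and 214 lower in the HHcy-labelled library, and in granule-poor cells 332 and 78, and 118 and 35. Thinning to 1000 UMIs gave 65 and 60, and 64 and 32, and in granule-poor cells 42 and 42, and 21 and 24. A minimum of 10 UMIs gave 274 lower genes in the western diet library, and 193 higher and 326 lower between stages. A minimum of 100 UMIs gave 120 and 166, 96 and 49, and between stages 24 and 80. Granule-poor cells alone gave 267 lower in the HHcy-labelled and 107 higher in the western diet library, and turned HHcy-labelled Ngp (1.74), Cybb (0.36), Tuba1b (0.026) and the specific granule median (1.64). Without class II barcodes too, 201 were lower, and 71 and 71 in the western diet library, with Ngp at 2.12, Cybb at 0.15, the specific granule median at 1.43 and western diet Cxcr4 at -0.14. Granule-rich cells alone gave 244 lower in the HHcy-labelled library, and 70 higher and 62 lower in the western diet library. With class II barcodes kept, granule-poor western diet cells gave 107 and 146. Cd74 turned in the western diet library as well, to 0.029 without class II barcodes, 0.032 at a 5% mitochondrial limit, 0.72 at 30 or more S100 UMIs, 0.025 at a receptor sum of 5, and 0.020 without neutrophils that held Apoe.

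Without the cell with most UMIs of each gene in each library, no called ratio of a named gene and no list median past 1.5-fold changed sign in granule-poor cells. Alternatives on 1 UMI of the barred genes, the top cell of each gene, class II barcodes, granule-rich cells alone, markers at 2 UMIs and all those within granule-poor cells were chosen after seeing the data.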
